A study of Mus musculus with 4 samples.

Results

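Cohesin is the ring complex that holds sister chromatids together, and its subunit genes were followed here in pachytene spermatocytes of DDX4 homozygous knock-in mice (KK) and of WT mice. Ddx4 encodes the germline RNA helicase of germ granules. The 10 genes were taken by symbol from the 55364 genes of the deposited tables, and all 10 were found: the kleisins Rec8, Rad21l and Rad21, the SA subunits Stag3, Stag1 and Stag2, the SMC1 proteins Smc1b and Smc1a, the common subunit Smc3, and Sgo2a, a shugoshin that is a guardian of cohesin and not a subunit of it. Each genotype had 2 RNA-seq libraries, made from testis cells enriched by centrifugal elutriation, with 17970207 to 19438570 expected counts per library. Neither the sequence inserted at Ddx4 nor the age and strain of the mice is given in the sources used here, and no label says whether the 2 libraries of a genotype are from different animals. The p-values measure only the spread between these libraries, which may be technical.

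In the cohesin ring an SMC1 and an SMC3 protein are joined by a kleisin, to which an SA subunit binds. Germ cells entering meiosis add meiosis-specific versions (REC8, RAD21L, STAG3 and SMC1B) that build the chromosome axis and hold chromatids and homologues until the divisions. Separase opens the ring by cutting the kleisin, and shugoshin with the phosphatase PP2A shields REC8 at centromeres through the first division.

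The targeted gene was checked first. Ddx4 stood at 54.4 and 52.5 TPM (a level per transcript length, scaled to one total in every library) in KK, against 265 and 273 TPM in WT, and its log2 fold change of KK over WT was -2.34 ± 0.04 (SE, edgeR quasi-likelihood adjusted p = 6.8e-27). All 10 markers of pachytene spermatocytes passed the filter on low counts. In KK 2 were higher (Tex101 and Spag6) and 6 lower (Sycp3 and Piwil1 among them). By edgeR at an adjusted p under 0.05, 22% of all genes tested were higher and 21.7% lower. The 10 summed to 13466 and 13197 TPM in KK and 12099 and 11946 TPM in WT. Tex101 alone gave 1852 and 1868 TPM of these sums in KK and 311.5 and 310.7 TPM in WT. Ldhc, which was not called, gave 9748 and 9459 TPM in KK and 9688 and 9534 TPM in WT. The sums thus do not stand for the list, in which more markers were lower than higher. Of 8 round spermatid markers 5 were higher in KK (Acrv1, Tnp1, Tssk1, Spaca1 and Catsper3) and 2 lower (the protamine genes Prm1 and Prm2), with summed levels of 16345 and 15681 TPM in KK and 17514 and 17315 TPM in WT. Markers of Leydig cells passed the test as higher in KK in 5 of 5 cases, with a summed level of 2398 and 2482 TPM in KK against 658 and 693 TPM in WT. Most of these sums was Insl3, at 2314 and 2399 TPM in KK and 611 and 642 TPM in WT. Of 7 tested spermatogonial markers 5 were higher in KK, with sums of 44.2 and 46.9 TPM in KK and 24.1 and 72.4 TPM in WT. Uchl1 alone gave 66.2 TPM of the last value, on 199 expected counts, against 17.9 TPM on 164 counts in WT replicate 1. In KK Uchl1 had 341 and 319 counts and was called higher. The other 7 spermatogonial markers summed to 12.2 and 13.9 TPM in KK and 6.19 and 6.22 TPM in WT. Of 4 leptotene and zygotene markers 2 were higher (Stra8 and Dmc1), with sums of 20.4 and 20.3 TPM in KK and 11.9 and 15.5 TPM in WT. Of 5 tested Sertoli markers 1 was higher (Gata4) and 1 lower (Wt1). They summed with Rhox5, which was not tested, to 87.4 and 92.1 TPM in KK and 93.2 and 94.6 TPM in WT. Of 3 tested peritubular and endothelial markers 1 was higher (Acta2), and of 2 tested macrophage markers 1 (Csf1r), with 0 lower in either list. No marker of these lists was at 0 in both libraries of a genotype. The X chromosome took 0.433% and 0.428% of the counts in KK and 0.265% and 0.267% in WT. The part of these differences in the results on cohesin was not tested, and in bulk RNA fewer cells of a type and less RNA per cell cannot be told apart.

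The promoters of 4 members are shown, Rec8 as the member with the largest called difference and Stag3, Stag1 and Smc1b as members that hold an E2F core. The windows are from RefSeq (GRCm38.p6) and run 5′ to 3′ on the strand of the gene. They cover 250 bases before to 50 bases after a RefSeq start. The Stag1 window lies inside the gene as placed by GENCODE M21 (100597798 to 100959375), not at its first base. The Stag3 window too lies inside its gene as placed there (138280240 to 138312393) and does not hold its first base. Capitals mark the E2F core GCGGGAA, which reads TTCCCGC where it lies on the opposite strand, and the CCAAT box, which there reads ATTGG. They are Rec8 at chr14:55617916-55618215 (plus strand), Stag3 at chr5:138280259-138280558 (plus), Stag1 at chr9:100643198-100643497 (plus) and Smc1b at chr15:85131908-85132207 (minus).
Rec8: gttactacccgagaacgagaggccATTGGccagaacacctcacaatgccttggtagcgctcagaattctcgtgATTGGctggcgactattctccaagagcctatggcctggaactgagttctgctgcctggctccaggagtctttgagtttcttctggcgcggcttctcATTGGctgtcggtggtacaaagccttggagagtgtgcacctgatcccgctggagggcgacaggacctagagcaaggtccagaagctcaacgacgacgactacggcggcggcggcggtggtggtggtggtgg
Stag3: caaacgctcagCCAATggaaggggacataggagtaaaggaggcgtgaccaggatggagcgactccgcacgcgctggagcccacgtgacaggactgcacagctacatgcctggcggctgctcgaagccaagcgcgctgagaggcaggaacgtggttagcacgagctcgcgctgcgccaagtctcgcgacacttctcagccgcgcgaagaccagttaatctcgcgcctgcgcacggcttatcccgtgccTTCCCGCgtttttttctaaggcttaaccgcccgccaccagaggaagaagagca
Stag1: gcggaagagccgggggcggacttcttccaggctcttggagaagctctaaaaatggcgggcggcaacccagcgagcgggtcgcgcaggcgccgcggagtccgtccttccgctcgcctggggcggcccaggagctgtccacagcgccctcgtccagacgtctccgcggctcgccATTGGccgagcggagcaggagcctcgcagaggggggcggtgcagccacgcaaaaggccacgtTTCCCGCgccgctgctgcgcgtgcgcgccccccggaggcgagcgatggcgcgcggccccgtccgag
Smc1b: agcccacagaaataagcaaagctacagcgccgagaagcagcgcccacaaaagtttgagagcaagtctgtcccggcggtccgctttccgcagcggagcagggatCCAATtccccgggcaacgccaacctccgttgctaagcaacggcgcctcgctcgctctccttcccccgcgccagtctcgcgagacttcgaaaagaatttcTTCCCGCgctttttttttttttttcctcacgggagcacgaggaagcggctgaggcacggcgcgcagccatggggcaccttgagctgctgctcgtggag

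The E2F core, part of the binding motif of the E2F family of cell cycle transcription factors, was found on either strand in the windows of 5 of 8 members with a window (Stag3, Stag1, Smc1b, Smc1a and Sgo2a), against 4.6% of all 32851 promoter windows of the same length. Sgo2a had 2 windows, so the 8 members had 9. Members are counted here by gene, while the shares over all windows are per window. The one at chr1:57985090-57985389, upstream of the gene as placed by GENCODE M21, held the E2F core. The one at chr1:57995724-57996023, which spans the first base of the gene there, did not. The E2F core contains a CG step, and the windows with it held 30 (Stag3), 43 (Stag1), 29 (Smc1b), 23 (Smc1a) and 11 (Sgo2a) CG steps, against a median of 7 over all windows. Those without it held 32 (Smc3), 18 (Rec8) and 2 (Rad21l), and the share among windows of like CG content was not computed. The E2F core began 3 bases before the RefSeq start of the window in Stag3, 16 bases before it in Stag1 and 48 bases before it in Smc1b. The Rec8, Smc3 and Rad21l windows did not hold these letters. The Rec8 window held the CCAAT box 3 times, and 3.37% of all windows held it at least that often; a single box or more was present in 7 of the 8 members and in 37.4% of all windows. The MYB core, searched as CAACNG or TAACNG, was present in 4 of the 8 members and in 49.7% of all windows, and the CRE (TGACGTCA) in 0 of the 8 and in 1.79%. Neither Rad21 nor Stag2 had a window in the table used. A match describes letters in a window, not a site in use.

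Among the SA subunit and SMC1 transcripts the meiosis-specific genes led by far in both genotypes. This did not hold for the kleisins, where Rad21 held 41.5% and 40.7% of the summed TPM in KK and 49.1% and 49.2% in WT. Stag3, the meiosis-specific SA subunit, had the highest level of the members at 208 and 215 TPM in KK and 266 and 257 TPM in WT. Smc1b, the meiosis-specific SMC1, came next with 67.2 and 65.7 TPM in KK and 62.8 and 67.3 TPM in WT, followed by Sgo2a at 26.4 and 26.1 TPM in KK and 30.3 and 32.4 TPM in WT. The lowest members were Rad21l and Smc1a, both under 1 TPM in every library.

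The order of the middle members differed between the genotypes. In KK it ran Rec8, Rad21, Stag1, Smc3 and Stag2, with no overlap between neighbours across the libraries. In WT it ran Stag1, Rad21, Rec8, Smc3 and Stag2, and there the levels of Rad21 and Rec8 overlapped, so their order was not resolved. Rad21l and Smc1a overlapped in KK and stood next to each other in WT, at 0.49 and 0.46 TPM for Rad21l and 0.36 and 0.43 TPM for Smc1a.

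**Figure D1:**
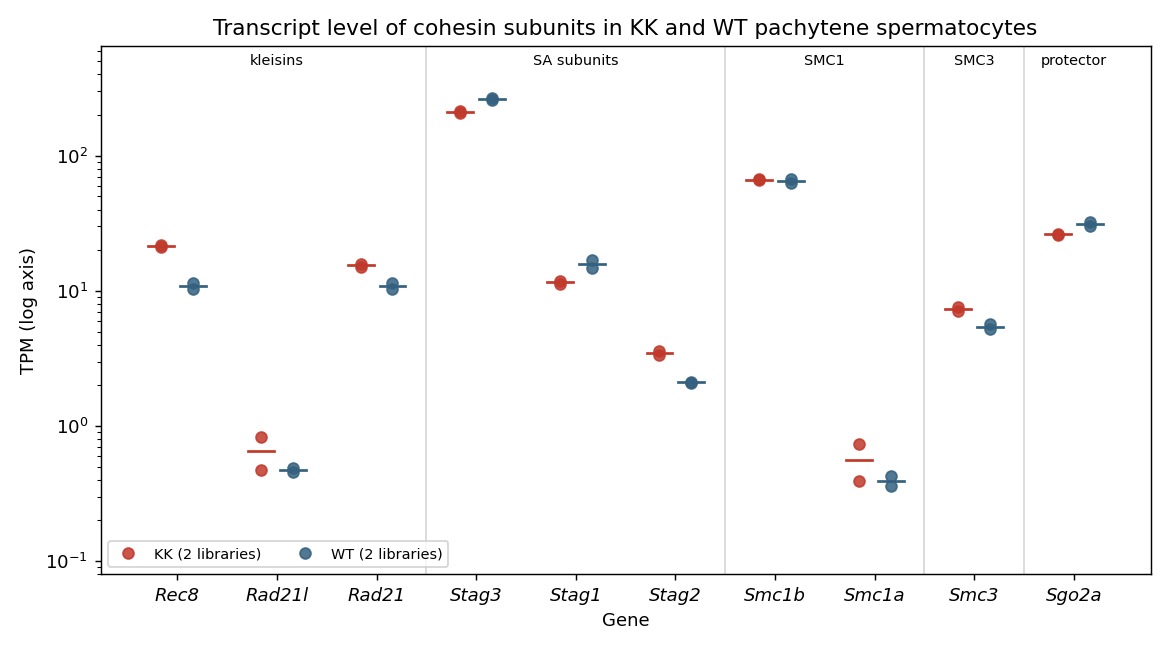
TPM of each gene on a log axis in the 2 KK (red) and 2 WT (blue) libraries, with 1 point per library and a bar at the mean of the genotype. Rec8 lies at 21.7 and 21.3 TPM in KK and 11.4 and 10.3 TPM in WT, and the points of Smc1b overlap between the genotypes.

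Of the 9 members that passed the filter on low counts, 4 were higher in KK (Rec8, Rad21, Stag2 and Smc3), 3 were lower (Stag3, Stag1 and Sgo2a) and 2 did not pass (Smc1b and Smc1a), by edgeR's quasi-likelihood test with Benjamini-Hochberg adjustment over 16571 genes at 0.05. In the same test 22% of all genes were called higher and 21.7% lower, 43.7% in either direction. Among autosomal genes, to which 7 of the 9 belong, 20.4% were called higher and 22.6% lower. The normalised counts (CPM, scaled by library) did not overlap between the genotypes for 8 of the 9 members, and for 70.8% of all genes tested. With limma on log2(TPM + 1) in place of counts, the calls of Rec8, Rad21 and Stag3 held and those of Stag2, Smc3, Stag1 and Sgo2a were lost.

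**Figure D2:**
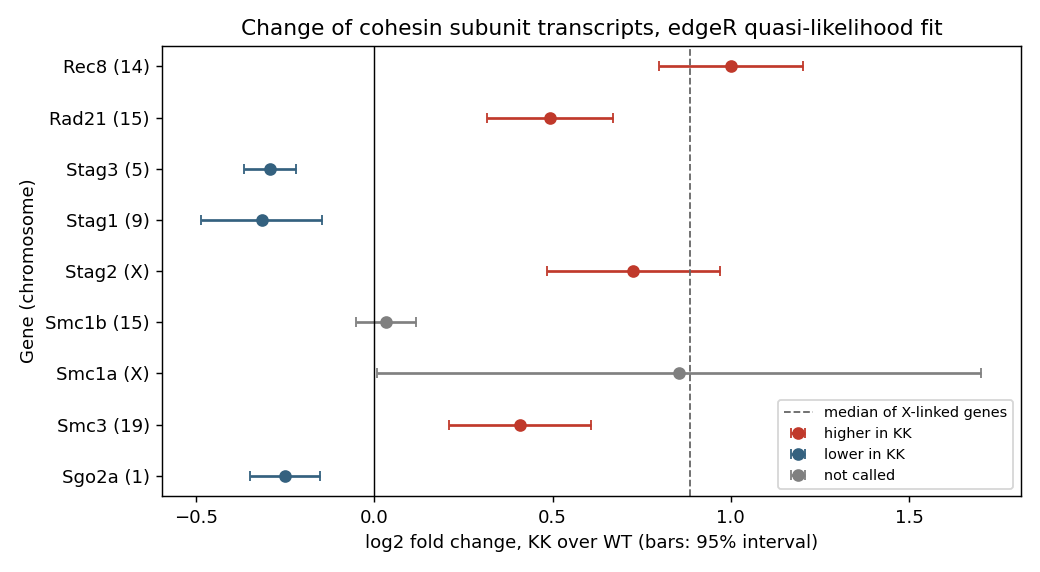
Log2 fold change of KK over WT for the 9 tested members, with the chromosome in brackets and bars for the 95% interval of the fit, unadjusted for the number of genes. Rec8 has the largest change at 1.00, and the dashed line marks the median of the tested X-linked genes at 0.89.

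Among the kleisins, Rec8 showed the largest difference of any member called. Rec8, the meiotic kleisin protected at centromeres until the second division (chromosome 14, 55618037 to 55625395, plus strand, GRCm38), had 636 and 572 expected counts in KK and 288 and 281 in WT. Its level was 21.7 and 21.3 TPM in KK, against 11.4 and 10.3 TPM in WT. Both KK libraries lay well above both WT libraries. The log2 fold change was 1.00 ± 0.10 (SE), with an edgeR adjusted p of 2.1e-09, and 10.2% of all genes tested had a higher one.

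Rad21, the kleisin of mitotic cells that also serves in meiosis (chromosome 15, 51962240 to 51991747, minus strand), was higher by a smaller amount. It stood at 15.8 and 15.1 TPM in KK and 11.4 and 10.4 TPM in WT, without overlap. In normalised counts it averaged 42.6 ± 0.90 CPM in KK and 30.2 ± 2.43 CPM in WT (SD, n = 2 each), a log2 fold change of 0.49 ± 0.09 (SE, edgeR adjusted p = 3.1e-05).

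Rad21l, the kleisin that acts early in meiotic prophase (chromosome 2, 151645404 to 151668533, minus strand), was too low to test. It had 10 and 16 counts in KK and 9 and 9 in WT. The ratio of the summed counts, scaled to library totals, was 1.44 with an exact 95% interval of 0.762 to 2.80. The interval covers counting error only, and a difference was neither shown nor excluded at this depth.

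The summed level of the 3 kleisin genes was 38 and 37.2 TPM in KK and 23.3 and 21.1 TPM in WT, without overlap and without a test. Rec8 and Rad21 were near parity in WT and apart in KK: the ratio of Rec8 to Rad21 in TPM was 1.38 and 1.41 in KK and 0.996 and 0.989 in WT. Rec8 made up 57.2% and 57.1% of kleisin TPM in KK and 48.8% and 48.7% in WT, while Rad21l held 1.24% and 2.23% in KK and 2.1% and 2.18% in WT. These shares were not tested.

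**Figure D3:**
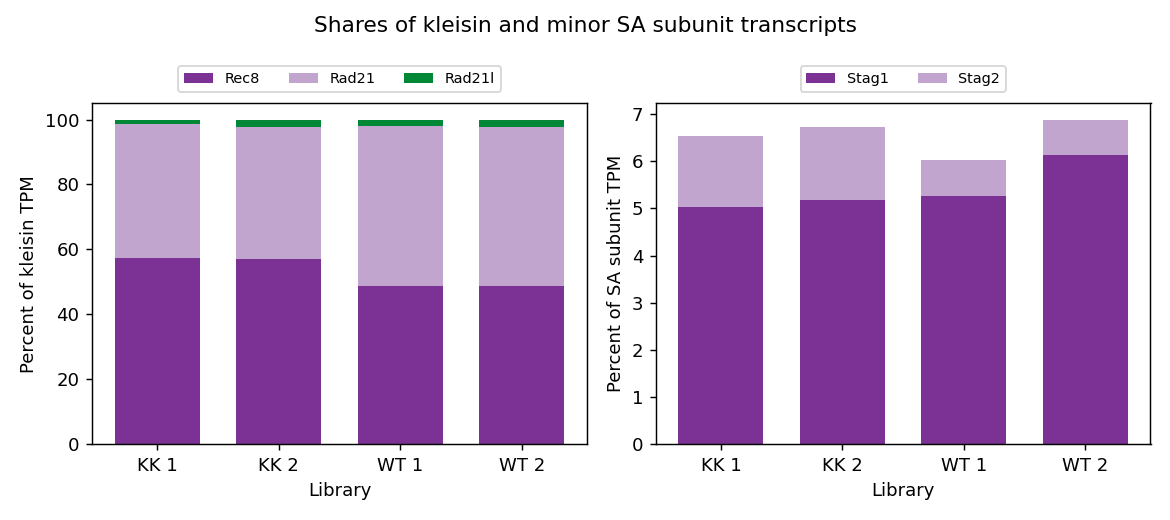
Percent of the summed TPM of the 3 kleisin genes (left) and of the 3 SA subunit genes (right, Stag1 and Stag2 only, with Stag3 as the remainder not drawn) in each library. Rec8 takes 57.2% and 57.1% of kleisin TPM in KK and 48.8% and 48.7% in WT, and Stag2 takes 1.5% and 1.55% of SA subunit TPM in KK and 0.750% and 0.757% in WT.

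The 3 SA subunits did not move in 1 direction. Stag3 (chromosome 5, 138280240 to 138312393, plus strand), without which meiotic cohesin axes do not form in mouse, had 10729 and 10065 expected counts in KK and 11863 and 12157 in WT. Its log2 fold change was -0.29 ± 0.04 (SE, edgeR adjusted p = 8.5e-08), and both KK libraries were below both WT libraries. Its depth made this small difference the one with the smallest standard error of the 9 members tested, with a 95% interval of -0.36 to -0.22.

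Stag1, an SA subunit of somatic cells (chromosome 9, 100597798 to 100959375, plus strand), stood at 11.2 and 11.9 TPM in KK and 14.9 and 16.9 TPM in WT. The genotypes did not overlap, and the log2 fold change was -0.32 ± 0.08 (SE, edgeR adjusted p = 0.0025). Without WT replicate 2 the call was lost (log2 fold change of -0.24, adjusted p = 0.052 by edgeR), with WT replicate 1 at 46.3 CPM still above the KK libraries at 41.0 and 37.8 CPM.

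Stag2, the X-linked SA subunit of somatic cells (42149317 to 42277185, plus strand), went the other way from Stag1. It had 300 and 296 expected counts in KK and 165 and 175 in WT, and levels of 3.34 and 3.58 TPM in KK against 2.12 and 2.09 TPM in WT. Both KK libraries lay above both WT libraries. The log2 fold change of Stag2 was 0.73 ± 0.12 (SE, edgeR adjusted p = 1.0e-05). Of 568 tested X-linked genes 57.6% were called higher and 1.06% lower, the median log2 fold change was 0.89, and 60.4% of them had a higher value than Stag2.

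Stag3 kept most of the SA subunit transcripts throughout, at 93.5% and 93.3% of their summed TPM in KK and 94.0% and 93.1% in WT. The libraries of the genotypes overlapped in this share. The ratio of Stag3 to Rec8 in TPM was 9.58 and 10.1 in KK and 23.3 and 25.0 in WT, so the meiotic SA subunit and the meiotic kleisin stood closer together in KK, without overlap and without a test.

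The SMC1 genes stood far apart in level and neither passed the test. Smc1b (chromosome 15, 85064689 to 85131964, minus strand) had 3958 and 3533 expected counts in KK and 3238 and 3675 in WT, and the genotypes overlapped. Its log2 fold change was 0.03 ± 0.04 (SE, edgeR adjusted p = 0.55) with a 95% interval of -0.05 to 0.12, so the depth left room for a small difference only. With scaling by library size alone it was called higher (log2 fold change of 0.12, adjusted p = 0.024 by edgeR).

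Smc1a, the X-linked SMC1 of mitotic and meiotic cells (152016428 to 152062694, plus strand), had 27 and 42 expected counts in KK and 22 and 14 in WT. Its log2 fold change was 0.86 ± 0.41 (SE, edgeR adjusted p = 0.095), with a 95% interval of 0.0084 to 1.70, and 51.8% of tested X-linked genes had a higher value. Without KK replicate 1 it was 1.18 and passed (adjusted p = 0.034 by edgeR), without WT replicate 1 it was 1.25 (0.064), without WT replicate 2 it was 0.52 (0.44) and without KK replicate 2 it was 0.42 (0.58). The ratio of the summed Smc1a counts, 69 in KK and 36 in WT, was 1.92 with an exact 95% interval of 1.26 to 2.95 for counting error only. Adjusted over all genes, the test that includes the spread between libraries did not call Smc1a. Smc1b held 99.4% and 98.9% of SMC1 TPM in KK and 99.4% and 99.4% in WT.

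Smc3, the partner common to all cohesin rings (chromosome 19, 53600398 to 53645833, plus strand), was higher in KK. It stood at 7.57 and 7.09 TPM in KK and 5.22 and 5.66 TPM in WT, and averaged 25.3 ± 0.10 CPM in KK and 19.1 ± 0.68 CPM in WT (SD, n = 2 each). The groups did not overlap, and the log2 fold change of Smc3 was 0.41 ± 0.10 (SE, edgeR adjusted p = 0.0011). Smc1b transcripts outnumbered those of Smc3 in TPM by a ratio of 8.88 and 9.26 in KK and 12.0 and 11.9 in WT.

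Sgo2a, the shugoshin that protects centromeric REC8 in mouse meiosis (chromosome 1, 57995971 to 58025899, plus strand), was lower in KK. It had 1923 and 1742 expected counts in KK and 1931 and 2185 in WT, averaging 95.3 ± 0.68 CPM in KK and 113 ± 5.16 CPM in WT (SD, n = 2 each). The log2 fold change was -0.25 ± 0.05 (SE, edgeR adjusted p = 1.0e-04), with both KK libraries below both WT libraries in CPM. Its exons share 2455 of 7007 bases with those of Kctd18 on the opposite strand, and the library kit does not mark strand. Kctd18 itself had 334 and 259 expected counts in KK and 423 and 455 in WT, so the reads of these genes cannot be told apart there. The copy Sgo2b had 0 and 1 expected counts in KK and 2 and 3 in WT.

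Most members were carried by 1 isoform. Rec8-201, Rad21-201, Smc1b-201, Smc3-201 and Sgo2a-201 each held 91.9% or more of their gene's transcripts in every library, as did Rad21l-202. The differences called for Rec8, Rad21 and Smc3 were thus differences of that coding transcript. For Sgo2a this cannot be said, since reads in the exons shared with Kctd18 cannot be told apart. The SA subunit genes were split. The main coding transcripts of Stag3, Stag3-201 and Stag3-209, held 54.9% and 69.1% (Stag3-201) and 27.8% and 12.8% (Stag3-209) in KK, against 62.5% and 49.2% (Stag3-201) and 19.3% and 32.9% (Stag3-209) in WT. The genotypes overlapped in both, and the libraries of 1 genotype differed by more than the genotype means.

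In Stag1, the transcript Stag1-203, annotated as a target of nonsense-mediated decay, held 15% and 20.4% of Stag1 transcripts in KK and 0.00% and 4.23% in WT. Its expected counts were 119 and 157 in KK and 0 and 47 in WT, without overlap. The share of all isoforms without overlap was not computed. Stag1-216, also annotated as a decay target, went the other way, with 0.03 and 28.1 expected counts in KK and 32.1 and 58.7 in WT. The summed share of all decay-annotated Stag1 transcripts overlapped, at 15% and 32% in KK and 11.1% and 20.3% in WT. The coding isoform Stag1-206 held 52.6% and 37.2% in KK and 49.1% and 43.0% in WT, and Stag1-214 held 25.7% and 14.4% in KK and 26.0% and 24.2% in WT. Stag2 was divided between the coding transcripts Stag2-201, with 46.9% and 35.6% in KK and 62.3% and 42.5% in WT, and Stag2-203, with 53.1% and 64.4% in KK and 37.7% and 57.5% in WT. The genotypes overlapped in both. For Smc1a, whose counts were few, Smc1a-201 held 100% and 84.6% in KK and 100% and 47.9% in WT, and the retained intron transcript Smc1a-205 held 52.1% in WT replicate 2 on an estimated count of 0.89. These isoform values were not tested.

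**Figure D4:**
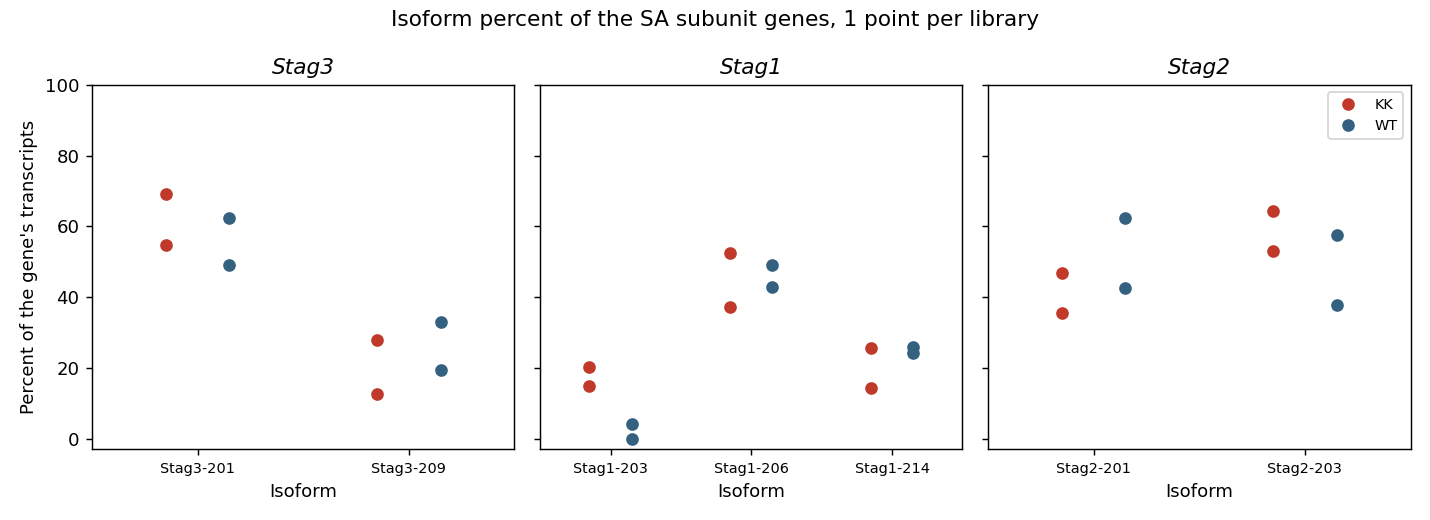
Percent of the gene's transcripts held by each isoform with at least 20% in any library, for the 3 SA subunit genes, with 1 point per KK (red) or WT (blue) library. Stag1-203 lies at 15% and 20.4% in KK and at 0.00% and 4.23% in WT, and the points of the other isoforms overlap between the genotypes.

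Of 32 tested genes that load, release, guard or open cohesin, 2 were called higher and 12 lower in KK, beside 22% higher and 21.7% lower among all genes tested. The log2 fold changes of those called ran from -0.46 to 0.57. With the condensin and SMC5/6 list added, the counts over 46 tested genes were 4 higher and 18 lower, and with scaling by library size alone 8 higher and 10 lower.

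Among loading and release factors 1 of 7 was higher and 3 lower, beside 22% and 21.7% of all genes tested. The median log2 fold change was -0.13 in the list against 0.0033 over all genes tested. The loader gene Nipbl averaged 338 ± 1.82 CPM in KK and 429 ± 36.2 CPM in WT (SD, n = 2 each), with a log2 fold change of -0.35 ± 0.04 (SE, edgeR adjusted p = 9.7e-08). The gene of its partner, Mau2, was higher, with 83.3 ± 0.08 CPM in KK and 71.4 ± 1.85 CPM in WT (log2 fold change of 0.22). Pds5b, a regulatory subunit bound to the kleisin, had a log2 fold change of -0.39 ± 0.08 (SE), and Wapl, which releases cohesin from chromatin, one of -0.13 ± 0.04 (SE). Neither TPM fit called Pds5b. Wapl was not called with library size scaling, with either TPM fit, with an effective length offset or without WT replicate 2 (-0.12, edgeR adjusted p = 0.093).

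Of 14 genes of cohesion establishment and protection 13 were tested, 1 was higher and 4 were lower (median log2 fold change -0.08). The shares over all genes tested were 22% higher and 21.7% lower. The SMC3 deacetylase gene Hdac8 was not tested, with 1 and 0 counts in KK and 0 and 0 in WT. Ppp2r5c, a B56 subunit of PP2A, averaged 655 ± 20.9 CPM in KK and 851 ± 6.40 CPM in WT (SD, n = 2 each; log2 fold change of -0.38, edgeR adjusted p = 7.6e-10), and the PP2A catalytic gene Ppp2ca had a log2 fold change of -0.25 ± 0.08 (SE, edgeR adjusted p = 0.016). The SMC3 acetyltransferase genes parted. Esco2 averaged 6.97 ± 0.14 CPM in KK and 4.68 ± 0.04 CPM in WT (log2 fold change of 0.57, edgeR adjusted p = 0.0096), and Esco1 averaged 42.1 ± 1.83 CPM in KK and 50.8 ± 0.84 CPM in WT (-0.27, adjusted p = 0.0056). Esco2 was not called by DESeq2, by either TPM fit or with the effective length offset. Esco1 was not called by either TPM fit or with library size scaling (adjusted p = 0.052 by edgeR). Ppp2ca was not called in any of these 5 settings, nor without WT replicate 2 (adjusted p = 0.071 by edgeR) or without KK replicate 1 (0.060). Ppp2ca shares 2985 of 7490 exon bases with a lincRNA on the opposite strand.

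Of 12 separase pathway genes edgeR called 0 higher and 5 lower (median log2 fold change -0.08), beside 22% and 21.7% of all genes tested. At an unadjusted p under 0.05 edgeR had 2 higher, and DESeq2 and limma called 0 higher. Espl1, the separase gene, had a log2 fold change of -0.46 ± 0.04 (SE, edgeR adjusted p = 2.5e-10), Cdc20, an activator of the anaphase-promoting complex, one of -0.27 ± 0.04 (SE), and Pttg1, which encodes the separase inhibitor securin, one of -0.20 ± 0.05 (SE). Espl1 was not called by limma on log2(TPM + 1), with a log2 fold change of -0.53 (adjusted p = 0.070), or on log2(TPM + 0.1), with one of -0.54 (0.069).

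The other SMC complexes, condensin and SMC5/6, had 2 of 14 genes higher and 6 lower (median log2 fold change -0.18). Among all genes tested 22% were higher and 21.7% lower. Ncaph2, the kleisin of condensin II, averaged 121 ± 0.94 CPM in KK and 50.4 ± 0.43 CPM in WT (SD, n = 2 each; log2 fold change of 1.27, edgeR adjusted p = 5.3e-17). Its exons share 829 bases with Sco2 and 535 bases with Tymp on the opposite strand, where Sco2 had 390 and 359 expected counts in KK and 381 and 374 in WT, and Tymp 12.2 and 26.2 in KK and 19.2 and 14.4 in WT. Nsmce1, a subunit of SMC5/6, was also higher (log2 fold change of 0.34), while Smc6 (-0.41), the condensin I gene Ncapd2 (-0.35, not called by either TPM fit) and the condensin ATPase gene Smc4 (-0.17) were lower.

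**Figure D5:**
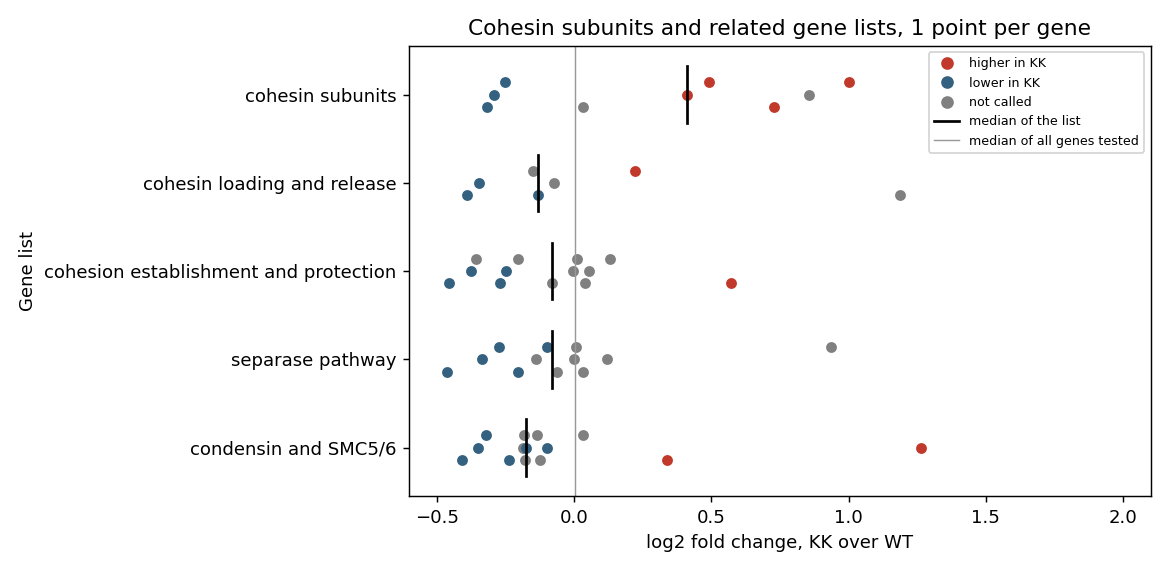
Log2 fold change of KK over WT for the 9 tested cohesin members and the 46 tested genes of the 4 related lists, 1 point per gene, coloured by the edgeR call. Black bars mark the list medians, 0.41 for the members and between -0.18 and -0.08 for the related lists, beside the grey line at the median of all genes tested.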

How the data were processed

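RNA of pachytene spermatocytes from 2 KK and 2 WT libraries was measured. Bowtie, with mm10 and GRCm38 as builds, is listed in the submitters' processing notes, and the quantifier is not given in the sources used here. The authors made the deposited expected counts by estimating the reads of each gene and isoform, per the file headers. Their TPM values were scaled by the authors to effective length and to a fixed total per library, per the file headers. The percent of a gene's transcripts held by each isoform was taken as the authors deposited it. Symbols, coordinates and transcript types came from GENCODE M21 (GRCm38), which held 55104 of 55364 gene identifiers.

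Expected counts were rounded and fitted over the whole table with edgeR 4.0.16 in R 4.3.3 (TMM factors, default expression filter, quasi-likelihood test on genotype, Benjamini-Hochberg at 0.05, 16571 genes). Standard errors were derived from the log2 fold change and its F statistic. CPM is on the TMM scale. The code was tested on simulated data. Alternatives used DESeq2 1.42.0, limma 3.58.1, other scalings and filters, and each library left out. Named list genes are up to 3 called in each direction with the smallest adjusted p and a mean of at least 1 CPM; Hdac8, which was not tested, was singled out after its values were seen. The members, gene lists and tests were chosen with earlier results of these data known.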

Additional observations from a re-analysis of the deposited data

How the results depend on the processing

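Across 14 alternatives Rec8, Rad21 and Stag3 kept their direction and their call, with log2 fold changes of 0.93 to 1.08, 0.41 to 0.58 and -0.32 to -0.21. Stag2, Smc3 and Sgo2a each lost their call in 2, the limma fits on log2(TPM + 1) and log2(TPM + 0.1), and Stag1 in 2, limma on log2(TPM + 1) and the fit without WT replicate 2. The cause was not tested. Members called higher numbered 4, against 2 with either limma fit, and members called lower 3, against 1 with limma on log2(TPM + 1). Over all genes 3648 were higher, against 2035 with DESeq2, 2275 with limma on log2(TPM + 1) and 2209 on log2(TPM + 0.1). Lower genes numbered 3589, against 1551 and 1549 with the limma fits and 2132 with an effective length offset. Of the related lists 4 genes were higher, against 8 with library size only, and 18 lower, against 10 with library size only, 7 with either limma fit and 11 with the effective length offset. Library size scaling put 64.2% of all calls higher in KK, against 50.4% with TMM. With each library left out, members called ran from 4 to 5 higher and from 2 to 3 lower. The difference in the Stag3 share of SA subunit TPM, KK minus WT, changed sign without WT replicate 1 (0.25 percentage points, against -0.18), and that in the Smc1b share of SMC1 TPM without KK replicate 2 (0.025, against -0.24). The replicate block changed no call of a member, with 4 higher and 3 lower; the labels say only that libraries share a number, and the deviations of same-numbered libraries correlated at -0.08 across genes. Depth limited Rad21l, which had 26 counts in KK and 18 in WT.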

Other observations

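The main isoform of each member was cut into 31-base words, which were searched on both strands in the GENCODE M21 transcripts, and 0 were shared between members. Stag3, Stag1, Smc1b, Smc1a and Rad21l shared 0 words with other genes, Rad21 shared 0.280%, Stag2 0.456% and Rec8 0.696%. Of the 15 words that Rec8 shared, 10 were in Gm21269, which had 6993 and 6342 expected counts in KK and 5381 and 5562 in WT, and the part of these words in the Rec8 counts was not tested. Smc3 shared 3.19%, most of them with Gm29763, which had 0 expected counts in every library. Sgo2a shared 49.8%, nearly all with Kctd18.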
